A study of Mus musculus with 7 samples.

Results

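The genes described here are those of fatty acid activation, oxidation, elongation and desaturation in sorted Pax7-GFP cells from mice kept in normocapnia or hypercapnia. They were chosen by symbol, as every gene of the deposited table whose name begins with Acsl, Acss, Acsf, Cpt1, Cpt2, Acad, Hadh, Acot, Elovl or Fads. This gave 44 of 23930 genes. The comparison asks which of them differed in mRNA level between the 2 conditions in GFP+ cells, which the labels call satellite cells, the stem cells that rebuild muscle fibers.

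The mice carried Pax7-IRES-CreERT2 and a floxed-stop GFP reporter. Satellite cells are known by their transcription factor Pax7, tamoxifen switched the reporter on in cells expressing it, and their progeny stayed labeled. Both groups shared these alleles and the tamoxifen, and GFP+ cells were collected by sorting. The 3 normocapnia libraries (NC1 to NC3) came from mice kept in room air, and the 4 hypercapnia libraries (HC1 to HC4) from mice kept in a chamber whose CO2 the methods give as 10%, in both cases for 4 weeks from 12 to 16 weeks of age. According to the methods, the tibialis anterior and gastrocnemius muscles had been injured with cardiotoxin 3 days before collection, and cells were taken from all hind leg muscles. The sample labels do not state an injury, and the heading of the deposited table carries another time that the methods use only for cultured cells. The strain label carries a different number after C57BL in each sample, while the growth text gives one strain for all, so strain cannot be told apart from sample by that label. The labels do not say whether each library came from its own mouse, so p-values measure the spread between these libraries.

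RNA was read with the AmpliSeq mouse transcriptome panel, which amplifies 1 short stretch per gene, and values are RPM, reads scaled by the total that the panel took up. Libraries held 14527445 to 23388710 reads, so that 1 read was worth 0.0428 to 0.0688 RPM and a count of 3 reads, taken as the floor, lay between 0.128 and 0.207 RPM. This covers counting error only. Where 3 or 4 values are listed they stand in the order NC1, NC2, NC3 or HC1, HC2, HC3, HC4. RPM is not scaled to amplicon or gene length, and levels are therefore compared between groups within a gene. In bulk RNA, fewer cells of a type and less RNA per cell cannot be told apart.

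Markers of several cell types were found, at levels that differed between libraries. The summed level of 10 satellite cell markers was 3313, 989.7 and 543 RPM in normocapnia and 805, 774, 1493 and 1275 RPM in hypercapnia, with Pax7 itself between 4.34 RPM (NC3) and 268 RPM (NC1). Sdc4 alone, at 429 RPM (HC2) to 781 RPM (NC2), made up most of the sum in NC2, NC3, HC1 and HC2. The summed level of 10 macrophage markers, which cannot be set against that of the satellite cell markers since amplicons differ, was at 11426 to 33356 RPM in normocapnia and 18704 to 23616 RPM in hypercapnia. Lyz2 made up most of this sum in every library, with 8354 RPM in NC1 and 29108 RPM in NC3. The 8 adipocyte markers summed to 2.36 to 4.11 RPM in normocapnia and 1.56 to 13.4 RPM in hypercapnia, with Adipoq and Lep at or below 0.135 RPM in all libraries. RNA of Xist, transcribed from the inactive X chromosome of females, was found at 445 to 701 RPM in 4 libraries (NC1, NC2, HC1, HC2) and at or below 0.125 RPM in the other 3, in which the Y-linked Ddx3y was found at 103 to 206 RPM. Each condition thus held libraries of both kinds, and differences within each kind are given, as values with no test, for the members the results turn on and for called genes. Those without Xist RNA set HC3 and HC4 against NC3 alone.

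Fatty acids enter metabolism when a synthetase joins them to coenzyme A (Acsl, Acss and Acsf genes). The acyl group is then passed to carnitine to cross into mitochondria (Cpt1 and Cpt2), where acyl-CoA dehydrogenases (Acad) and hydroxyacyl-CoA dehydrogenases (Hadh, Hadha) take part in shortening it to acetyl-CoA, while thioesterases (Acot) release the free acid, Elovl enzymes lengthen the chain and Fads enzymes put in double bonds. Quiescent satellite cells are known to depend on fatty acid oxidation and to turn toward glycolysis when they are activated.

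The 4 genes whose groups did not overlap were Acss1 and Acsl5, higher in hypercapnia, and Acsl4 and Hadh, lower. The 250 bases before the RefSeq start of each (GRCm38.p6, 5′ to 3′ on the strand of the gene) are shown so that the starts of genes that differed in opposite directions can be set side by side. Capitals mark matches on either strand to GGGCGG, the GC box bound by Sp1, and to CCAAT, the box bound by NF-Y.
Acss1, chr2:150668241-150668490, minus strand: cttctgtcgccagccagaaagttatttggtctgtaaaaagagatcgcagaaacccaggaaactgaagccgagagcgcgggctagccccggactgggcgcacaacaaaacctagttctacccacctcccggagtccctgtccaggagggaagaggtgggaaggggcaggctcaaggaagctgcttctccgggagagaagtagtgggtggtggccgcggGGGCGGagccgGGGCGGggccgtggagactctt
Acsl5, chr19:55253119-55253368, plus strand: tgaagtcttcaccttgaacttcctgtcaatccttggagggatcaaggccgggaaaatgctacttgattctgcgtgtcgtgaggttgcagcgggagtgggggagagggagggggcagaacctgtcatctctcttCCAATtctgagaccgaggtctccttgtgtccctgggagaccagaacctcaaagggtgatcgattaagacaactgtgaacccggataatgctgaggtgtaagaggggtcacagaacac
Acsl4, chrX:142390536-142390785, minus strand: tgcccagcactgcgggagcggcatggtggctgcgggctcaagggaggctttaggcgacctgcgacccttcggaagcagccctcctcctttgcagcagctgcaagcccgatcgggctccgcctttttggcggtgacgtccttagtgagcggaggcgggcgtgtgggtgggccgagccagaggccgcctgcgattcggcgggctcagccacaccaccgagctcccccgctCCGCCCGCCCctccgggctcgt
Hadh, chr3:131272102-131272351, minus strand: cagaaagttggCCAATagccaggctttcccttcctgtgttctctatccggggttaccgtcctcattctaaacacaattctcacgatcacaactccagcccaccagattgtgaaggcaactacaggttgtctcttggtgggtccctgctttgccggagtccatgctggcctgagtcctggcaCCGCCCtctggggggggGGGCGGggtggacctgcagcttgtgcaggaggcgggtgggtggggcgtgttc

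GC boxes were present before Acss1, which was higher in hypercapnia, as well as before Acsl4 and Hadh, which were lower, and the window of Acsl5 held a CCAAT box alone. The 2 matches before Acsl4 overlap each other. Of the 44 genes, 38 had a RefSeq start, with 46 windows in all. GGGCGG was found in 31 of these 46 windows (67.4%) and in 32.7% of all 32851 windows of this length. The half-site of nuclear receptors, AGGTCA, was found in 11 of the 46 windows (23.9%), among them none of the 4 printed, and in 14.0% of all windows. The direct repeat of that half-site with any 1 base (N) between the copies, to which PPAR factors bind, was found before 0 of the 38 genes and in 0.0335% of all windows. CCAAT (22 of 46 windows, 33.8% of all windows), CACGTG (2 of 46, 6.02%) and the sterol element TCACNCCAC (1 of 46, 1.05%) completed the search. These are matches of letters in a window and not binding sites.

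Genes were called at the thresholds of the study with limma on log2(RPM + 1), where p before adjustment had to be under 0.05 and the difference larger than 1.5-fold. Of the 44 genes, 2 were called, both higher in hypercapnia (4.55%), beside 2.57% of all genes (1.43% higher and 1.14% lower) and 4.75% of the 12504 genes that averaged 1 RPM or more. The same thresholds gave other genes and directions with other scalings. Acss1 was called higher and Acsl4 lower under both median-of-ratios scaling (beside 612 of all 23930 genes) and filtered edgeR (beside 6.03% of its genes). With DESeq2 Acss1 was higher and Acsl4 and Hadh lower (beside 5.45%). With quantile normalization Acsl5 was higher and Acss3 and Hadh lower (beside 693 of all 23930 genes). No member passed after Benjamini-Hochberg adjustment over all genes (lowest limma adjusted p 0.712), and neither did any other of the 23930 genes. Of the 44 members, 4 had an unadjusted p under 0.05 beside 4.66% of all genes and 7.58% of those averaging 1 RPM or more. The count of members after adjustment was also 0 with edgeR (lowest adjusted p 0.758), which passed 0 of its 13293 genes. With DESeq2 it was 0 as well (lowest adjusted p 0.233), beside 0.121% of all genes. The 2 groups did not overlap for 4 of the 44 genes (9.09%), beside 4.83% of all genes, 7.72% of those averaging 1 RPM or more and 9.62% of those averaging 10 RPM or more. Both shares were close to those of all genes of like level.

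Of the 44 genes, 39 averaged 1 RPM or more and 23 averaged 10 RPM or more, and Acot3 was at 0 in all 7 libraries. Log2 fold changes, hypercapnia minus normocapnia, were above 0 for 29 and below 0 for 14, with a median of 0.19, close to the median of 0.16 for all genes averaging 1 RPM or more. With median-of-ratios scaling the same medians were 0.09 for the fatty acid genes and 0.04 for the other set. The median of the fatty acid genes was 0.02 without NC3 (23 above 0 and 19 below) and 0.41 without NC1 (32 above 0 and 11 below), where the medians of all genes averaging 1 RPM or more were −0.07 and 0.36. The number called was 9 without NC1 (beside 8.32% of all genes), 4 without NC2 (5.04%), 4 without HC3 (2.39%) and 1 without HC1 (1.61%).

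**Figure D1:**
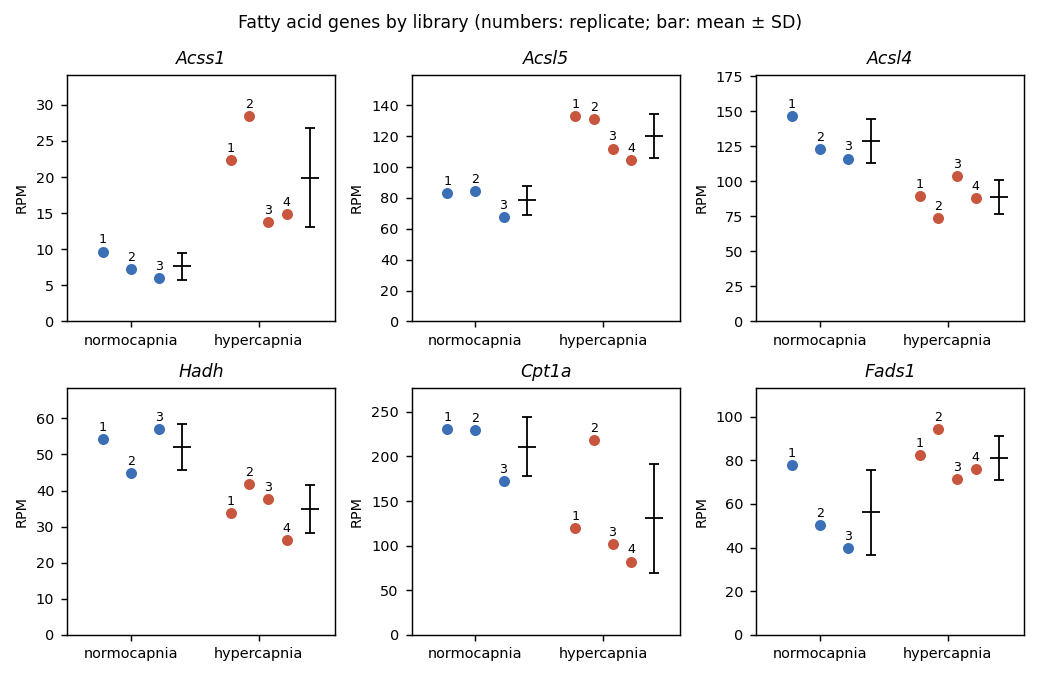
RPM (linear axis from 0) of 6 fatty acid genes in each library, blue for normocapnia and red for hypercapnia, with the replicate number above each point and a bar for the mean ± SD. Acss1 and Acsl5 were higher in all 4 hypercapnia libraries and Acsl4 and Hadh lower, whereas for Cpt1a HC2 and for Fads1 NC1 lay within the range of the other group.

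Of the 9 activation genes, 2 were called, beside 4.75% of genes averaging 1 RPM or more, and 3 had groups that did not overlap, beside 7.72% of such genes. Acss1, the mitochondrial enzyme that makes acetyl-CoA from acetate, was at 9.68, 7.23 and 5.99 RPM in normocapnia and at 22.4, 28.5, 13.8 and 14.9 RPM in hypercapnia. The lowest hypercapnia library was above the highest normocapnia library. The means were 7.63 ± 1.88 RPM (SD, n = 3) and 19.9 ± 6.88 RPM (SD, n = 4), a log2 fold change of 1.24 (SE 0.30, 95% interval 0.49 to 1.99, limma Benjamini-Hochberg adjusted p = 0.809). The difference was 1.49 among the 4 libraries with Xist RNA and 1.13 among the 3 without it. Acss1 was still called when any 1 library was left out, and of 21 other settings only quantile normalization ended the call, at 0.97.

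Acsl5, a long-chain acyl-CoA synthetase of mitochondria and endoplasmic reticulum, was at 83.3, 84.7 and 67.7 RPM in normocapnia and at 133, 131, 112 and 105 RPM in hypercapnia. All hypercapnia libraries were above all normocapnia libraries. The log2 fold change was 0.61 (SE 0.13, 95% interval 0.29 to 0.92, limma Benjamini-Hochberg adjusted p = 0.712), just past the threshold of 0.585 that a 1.5-fold change sets. It was 0.65 among libraries with Xist RNA and 0.67 among those without. The call ended in 9 of 21 other settings, with values between 0.47 and 0.58, among them without NC3 (0.51), without HC1 (0.56) and without HC2 (0.56).

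Acsl4, which prefers arachidonic acid and is known for its part in lipid peroxidation and ferroptosis, was at 147, 123 and 116 RPM in normocapnia. In hypercapnia it was at 89.5, 73.9, 103 and 88.1 RPM, each lower than any normocapnia library. Its log2 fold change of −0.53 (SE 0.14, 95% interval −0.88 to −0.19, limma Benjamini-Hochberg adjusted p = 0.827) had an unadjusted p under 0.05 but was smaller than 1.5-fold, so it was not called. It was called in 7 of 21 other settings, among them edgeR (−0.65), DESeq2 (−0.70), without NC3 (−0.60) and without HC3 (−0.61). Acsl4 is X-linked, and its difference was −0.72 among libraries with Xist RNA and −0.28 among those without.

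The ratio of Acsl5 to Acsl4 RPM was 0.568, 0.687 and 0.582 in normocapnia and 1.49, 1.78, 1.08 and 1.19 in hypercapnia. This ratio was chosen after the values had been seen, carries no test and compares 2 amplicons, so that only its shift between libraries is described and not which gene was higher. Both of its genes had groups that did not overlap.

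None of the other 6 activation genes was called. Acsl1, the main long-chain synthetase of muscle and fat, was at 41.3, 31.2 and 21.5 RPM in normocapnia and at 21.8 to 25.6 RPM in hypercapnia (log2 fold change −0.34, SE 0.22). Its normocapnia libraries enclosed all the hypercapnia values. Acss3 was at 5.08, 3.08 and 2.20 RPM in normocapnia, at 0.599 and 0.502 RPM in HC1 and HC2, and at 2.87 and 4.94 RPM in HC3 and HC4. Its 2 lowest hypercapnia libraries were the 2 with Xist RNA, and its difference was −1.68 among libraries with Xist RNA and 0.58 among those without. Acss2, the cytosolic counterpart of Acss1, ranged from 0.275 RPM (NC3) to 4.68 RPM (NC1) in normocapnia and from 2.31 to 5.28 RPM in hypercapnia (0.61, SE 0.56, with 0.0051 without NC3 and 1.08 without NC1). Acsf3, the malonyl-CoA synthetase of mitochondria, had a log2 fold change of 0.39 (SE 0.37), Acsl3 of 0.14 (SE 0.50) and Acsl6 of −0.19 (SE 0.73). In the same order these were 0.70, 0.65 and 0.62 without NC1 and −0.0023, 0.13 and −0.66 without NC3.

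Carnitine transfer was represented by 3 genes, none of them called. Cpt1a, the form of carnitine palmitoyltransferase that controls entry of long-chain acyl groups in liver and many other tissues, was at 231, 229.5 and 173 RPM in normocapnia and at 119, 219, 101 and 82.1 RPM in hypercapnia. HC1, HC3 and HC4 were below all normocapnia libraries, and HC2 was within their range. The log2 fold change was −0.78 (SE 0.36, 95% interval −1.67 to 0.11, limma Benjamini-Hochberg adjusted p = 0.915), and −1.06 without HC2, where it was called. It was called also with the macrophage markers as a covariate (−1.02). The difference was −0.51 among libraries with Xist RNA and −0.91 among those without. Cpt2, the inner membrane partner, was at 2.69 to 9.81 RPM in normocapnia and 4.69 to 8.65 RPM in hypercapnia (0.02, SE 0.42), and Cpt1c, known from the brain, at 0.513 to 2.59 and 0.754 to 1.90 RPM (0.19, SE 0.38). The muscle form Cpt1b was not analysed here.

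**Figure D2:**
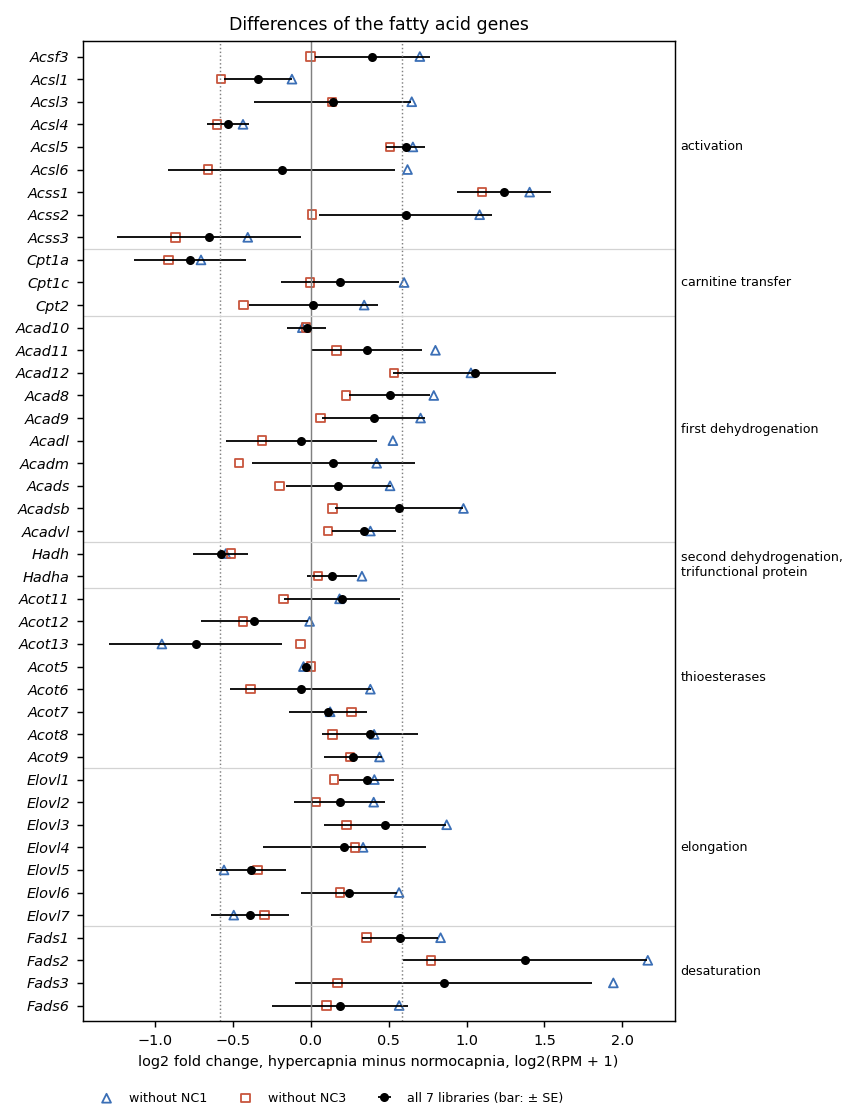
Log2 fold change (hypercapnia minus normocapnia, log2(RPM + 1), horizontal axis) of the 43 fatty acid genes with reads, in rows ordered by role, with black points and bars for the value ± SE over 7 libraries, triangles for the value without NC1 and squares for the value without NC3. Dotted lines mark a fold change of 1.5 in either direction. For the 10 acyl-CoA dehydrogenases the median moved from 0.35 to 0.08 without NC3 and to 0.61 without NC1. The groups of Acss1, Acsl5, Acsl4 and Hadh did not overlap, so leaving out a library could not move them across 0.

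The acyl-CoA dehydrogenases carry out the step that opens each round of oxidation, each for a range of chain lengths or for branched chains from amino acids. None of the 10 was called, and for none were the groups apart. Their log2 fold changes were above 0 for 8 and below 0 for 2, with a median of 0.35, and NC3 was the lowest library for 7 of the 10, as it was for 49% of all genes averaging 1 RPM or more. Without NC3 the median was 0.08, with 6 above 0 and 4 below.

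Acadl, the long-chain dehydrogenase, was at 152, 41.6 and 46.8 RPM in normocapnia and at 58.0, 56.3, 77.2 and 66.6 RPM in hypercapnia. NC1 was above every other library, and NC2 and NC3 were below all hypercapnia libraries. The log2 fold change was −0.06 (SE 0.48) with all libraries, 0.53 without NC1 and −0.31 without NC3, and it was −0.48 among libraries with Xist RNA and 0.61 among those without. Acadm, the medium-chain dehydrogenase, showed another order, with 40.1, 43.1 and 11.1 RPM in normocapnia and 22.3 to 38.4 RPM in hypercapnia (0.14, SE 0.52, and −0.46 without NC3). Acads, the short-chain dehydrogenase, was at 54.5, 36.4 and 19.8 RPM in normocapnia and at 34.7 to 44.6 RPM in hypercapnia. Acadvl, the very-long-chain dehydrogenase, was at 33.5 to 60.8 RPM in normocapnia and at 54.8 to 66.2 RPM in hypercapnia (0.34, SE 0.21). In each of these the hypercapnia libraries lay closer together than the normocapnia libraries.

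The dehydrogenases of branched-chain amino acids gave Acad8, which acts on the valine pathway, at 26.4, 17.4 and 11.5 RPM in normocapnia and at 24.2 to 26.7 RPM in hypercapnia (0.50, SE 0.26), and Acadsb, of the isoleucine pathway, at 17.5, 9.71 and 4.75 RPM and at 11.7 to 17.9 RPM (0.57, SE 0.41). Both had NC1 within and NC2 and NC3 below the hypercapnia range, and both were called once NC1 was left out (0.79 and 0.98), whereas without NC3 their values were 0.22 and 0.14. Acad9, also an assembly factor of respiratory complex I, had a log2 fold change of 0.40 (SE 0.33), Acad11 of 0.36 (SE 0.36), Acad12 of 1.05 (SE 0.52) and Acad10 of −0.03 (SE 0.13). Acad12 was at 0 in NC3 and at 5.03 RPM or below in the other libraries, and its value without NC3 was 0.53. It was called without NC2 and with Xist as a covariate, and Acad11 was called without NC1 (0.80) but was at 0.17 without NC3.

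Hadh, the 3-hydroxyacyl-CoA dehydrogenase of short and medium chains, was at 54.4, 44.9 and 57.1 RPM in normocapnia and at 33.7, 41.9, 37.5 and 26.2 RPM in hypercapnia. The groups did not overlap, but the highest hypercapnia library, HC2, was close to the lowest normocapnia library, NC2. The log2 fold change was −0.58 (SE 0.18, 95% interval −1.03 to −0.14, limma Benjamini-Hochberg adjusted p = 0.915), a little short of a 1.5-fold change, and Hadh was called in 6 of 21 other settings, among them without NC2 (−0.68), without HC2 (−0.67) and without HC3 (−0.62). Among libraries with Xist RNA the difference was −0.39, and among those without −0.84.

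Hadha, the α subunit of the trifunctional protein, which handles long chains, was at 104, 68.4 and 70.1 RPM in normocapnia and at 82.9, 86.1, 93.7 and 86.1 RPM in hypercapnia. NC1 was above and NC2 and NC3 were below all hypercapnia libraries, as with Acadl. The log2 fold change was 0.13 (SE 0.16), and −0.01 with median-of-ratios scaling. It was 0.33 without NC1, 0.03 without NC2 and 0.05 without NC3. It was 0.0023 among libraries with Xist RNA and 0.35 among those without. The partner subunit Hadhb was not analysed here. The ratio of Hadha to Hadh RPM, chosen after the values had been seen and given with no test, was 1.23 to 1.91 in normocapnia and 2.06 to 3.29 in hypercapnia.

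The 9 thioesterases gave no called gene, with 4 above 0, 4 below and Acot3 at 0. Acot9, a mitochondrial thioesterase, was at 144, 92.5 and 110.4 RPM in normocapnia and at 127, 119.5, 141 and 166 RPM in hypercapnia. NC1 lay among the hypercapnia libraries (log2 fold change 0.27, SE 0.19, with 0.09 among libraries with Xist RNA and 0.47 among those without). Acot7, a cytosolic enzyme abundant in neurons, ranged from 69.3 to 108 RPM in normocapnia and from 74.6 to 125 RPM in hypercapnia (0.11, SE 0.25). Acot13 was at 37.7, 26.9 and 132 RPM in normocapnia and at 25.3 to 33.9 RPM in hypercapnia. Its log2 fold change of −0.74 (SE 0.55) rested on NC3 and was −0.07 without that library. Acot11 (0.20, SE 0.37), the peroxisomal Acot8 (0.38, SE 0.31) and Acot6 (−0.07, SE 0.45) lay on either side of 0, Acot12 was at 1.43 RPM or below, and Acot5 was at 0.0690 RPM, below the floor, in NC3 and at 0 elsewhere.

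**Figure D3:**
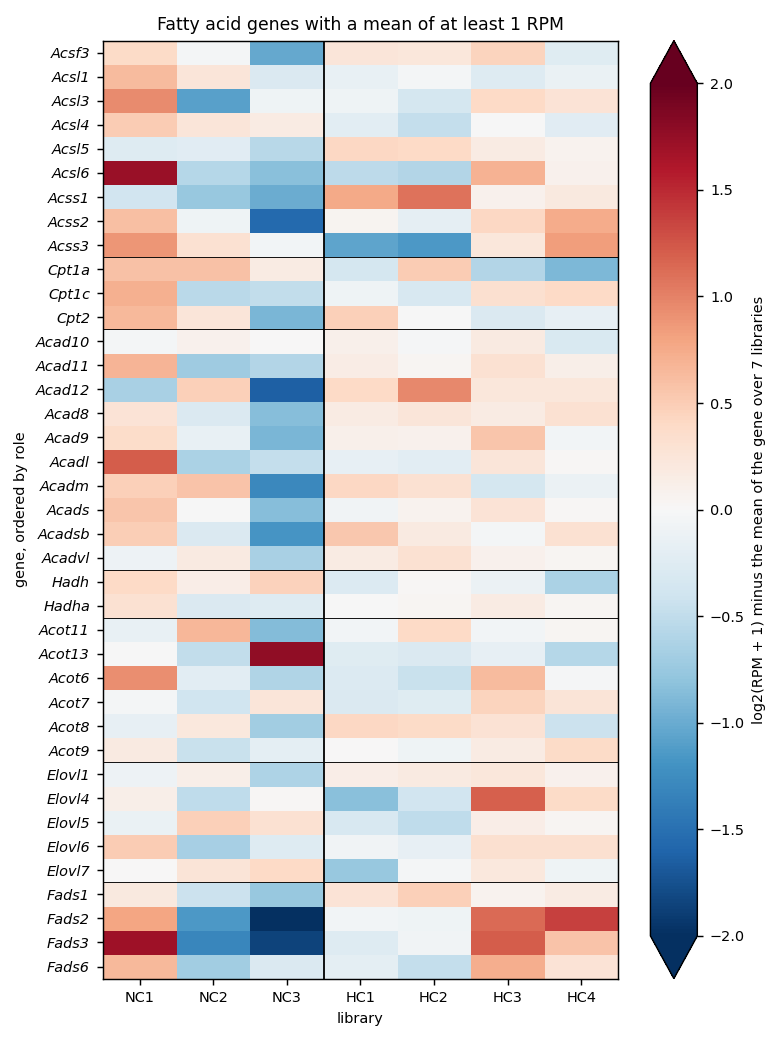
Level of the 39 fatty acid genes averaging 1 RPM or more (rows, ordered by role) in each library (columns, normocapnia left of the line), as log2(RPM + 1) minus the mean of the gene over 7 libraries, with the color scale ending at −2 and 2. NC3 was the lowest library for 21 of the 39 genes and NC1 the highest for 15 (beside 49% and 31.4% of all genes at this level), whereas the Acss1 and Acsl5 rows change color at the line between the groups.

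Elongases act on saturated chains (Elovl1, Elovl3, Elovl6) or on polyunsaturated chains (Elovl2, Elovl5), and none of the 7 was called. Elovl1, which makes very long saturated chains for sphingolipids, was at 123, 143 and 85.3 RPM in normocapnia and at 144, 149, 154 and 141 RPM in hypercapnia. NC2 was within and NC1 and NC3 were below the hypercapnia range, which was narrow (147 ± 5.81 RPM, SD, n = 4), and the log2 fold change was 0.36 (SE 0.18, limma Benjamini-Hochberg adjusted p = 0.915). It was 0.14 among libraries with Xist RNA and 0.78 among those without. Elovl1 was at 0.15 without NC3 and 0.52 without NC2. Elovl5 was at 97.5, 149 and 132 RPM in normocapnia and at 84.7, 74.5, 117 and 109.6 RPM in hypercapnia (−0.39, SE 0.22). Elovl6, which lengthens the product of fatty acid synthase, was at 0.727 to 2.90 RPM and at 1.46 to 2.44 RPM (0.24, SE 0.31). Elovl2, Elovl3, Elovl4 and Elovl7 reached at most 5.19 RPM (Elovl4 in HC3), with log2 fold changes of −0.39 to 0.47. Elovl3, at 0.47, was called without NC1 (0.87) and was at 0.23 without NC3.

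All 4 desaturases had log2 fold changes above 0, as did 7765 of the 12504 genes averaging 1 RPM or more. Their median was 0.71, with 0.26 without NC3 and 1.39 without NC1. None was called with all libraries, and Fads1, Fads2 and Fads3 were called without NC1, where 8.32% of all genes were called. Fads1 and Fads2 act in turn on the way from linoleic to arachidonic acid. Fads1 was at 78.0, 50.4 and 39.9 RPM in normocapnia and at 82.7, 94.4, 71.3 and 76.0 RPM in hypercapnia. NC1 lay among the hypercapnia libraries, and NC2 and NC3 below them. The log2 fold change was 0.57 (SE 0.24, 95% interval −0.03 to 1.18, limma Benjamini-Hochberg adjusted p = 0.915), and Fads1 was called without NC1 (0.83) and with Xist as a covariate (0.66), whereas without NC3 it was 0.36. Among libraries with Xist RNA it was 0.49, and among those without 0.87.

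Fads2 was at 8.25, 1.41 and 0.344 RPM in normocapnia and at 4.15, 4.07, 10.7 and 12.8 RPM in hypercapnia. Its log2 fold change of 1.38 (SE 0.79) was the highest of the 44, with a spread too wide for a call, and it was 0.11 among libraries with Xist RNA and 3.24 among those without. Fads2 was called without NC1 (2.16) and with the satellite cell markers as a covariate, and without NC3 it was 0.77. Fads3 had the same 3 highest libraries, with 44.3 RPM in NC1, 31.5 RPM in HC3 and 19.8 RPM in HC4 against 2.89 to 12.4 RPM in the other 4 (0.85, SE 0.95, with 1.94 without NC1 and 0.17 without NC3). Its sign turned between libraries with Xist RNA (−0.35) and those without (2.74).

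NC1, HC3 and HC4 were the 3 highest libraries for 13 of the 39 genes averaging 1 RPM or more (33.3%), against 24.7% of all genes at that level. These were Acsl3, Acsl6, Acss2, Cpt1c, Acadl, Hadha, Acot6, Acot9, Elovl4, Elovl6, Fads2, Fads3 and Fads6. NC1, HC3 and HC4 were also the 3 libraries with the highest sums of 6 of the 9 marker lists. These were the markers of satellite cells (1275 to 3313 RPM against 543 to 989.7 RPM), endothelium (267 to 633 RPM against 66.4 to 138 RPM), fibro-adipogenic cells (2712 to 3547 RPM against 1496 to 2078 RPM), myofibers (1276 to 4061 RPM against 211 to 1156 RPM), neutrophils (196 to 289.9 RPM against 65.1 to 113 RPM) and red blood cells (5.81 to 16.4 RPM against 0.300 to 2.10 RPM). Single genes of these lists did not all have the same 3 highest libraries, with Col1a1, Col3a1 and Acta1 among the exceptions. No gene of these 6 lists was called by limma. The part of these cells in the levels of the 13 genes was not tested. Acss1, Acsl5, Acsl4 and Hadh could not be among the 13, since a gene whose groups do not overlap has its 3 highest libraries in the same group. With the satellite cell markers as a covariate, the log2 fold change was 1.24 for Acss1, 0.61 for Acsl5, −0.57 for Acsl4 and −0.58 for Hadh. With the macrophage markers as a covariate these values were 1.05, 0.50, −0.45 and −0.57, and Acsl5, then below 1.5-fold, lost its call while Cpt1a gained one. Of the 10 macrophage markers Adgre1, the antigen F4/80, was called higher in hypercapnia, at 70.5 to 149 RPM in normocapnia and 151 to 429 RPM in hypercapnia, and its part in these results was not tested.

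The wider pathway was described with 102 further genes, of which 99 were in the table. They gave 7 called genes (7.07%, beside 2.57% of all genes and 4.75% of those averaging 1 RPM or more), 4 higher and 3 lower in hypercapnia, with a median log2 fold change of 0.02. The groups did not overlap for 5 of the 99 (5.05%, beside 4.83% of all genes). The number called was 14 without NC1 (beside 8.32% of all genes), 12 without NC2 (5.04%) and 4 without HC1 (1.61%). Of the 7, Pparg, Aacs, Phyh and Pnpla2 had groups that did not overlap, as did Ppard among the genes not called. With limma none of the 99, and none of all 23930 genes, passed Benjamini-Hochberg adjustment over all genes (lowest adjusted p of the 99 0.650). An unadjusted p under 0.05 was found for 8 of the 99, beside 4.66% of all genes. After adjustment edgeR gave 0 of the 99, beside 0 of its 13293 genes. DESeq2 gave 1, Aacs (DESeq2 adjusted p = 0.0468), beside 0.121% of all genes.

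Pparg, the nuclear receptor that turns on genes of lipid uptake and storage in fat cells and macrophages, was at 17.3, 16.5 and 12.4 RPM in normocapnia and at 25.9, 31.4, 31.4 and 25.3 RPM in hypercapnia. All hypercapnia libraries were higher, with a log2 fold change of 0.85 (SE 0.15, 95% interval 0.49 to 1.22, limma Benjamini-Hochberg adjusted p = 0.650). Aacs, the cytosolic acetoacetyl-CoA synthetase that feeds ketone bodies into lipid synthesis, was at 11.4, 11.1 and 6.20 RPM in normocapnia. In hypercapnia it was at 21.8, 21.8, 20.8 and 20.04 RPM, the narrowest hypercapnia range of the 9 called genes relative to its level, and the log2 fold change was 1.11 (SE 0.21, 95% interval 0.60 to 1.62, limma Benjamini-Hochberg adjusted p = 0.650).

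Phyh, the peroxisomal enzyme that starts the α-oxidation of phytanic acid, was at 42.5, 34.2 and 15.3 RPM in normocapnia and at 73.4, 77.3, 58.9 and 67.5 RPM in hypercapnia (log2 fold change 1.26, SE 0.36, limma Benjamini-Hochberg adjusted p = 0.888). Pnpla2, the triglyceride lipase ATGL, moved the other way, from 81.6, 107 and 135 RPM to 49.0, 63.2, 57.7 and 50.3 RPM (−0.94, SE 0.19, limma Benjamini-Hochberg adjusted p = 0.712). Pparg, Aacs and Phyh kept their call in all 21 other settings and Pnpla2 in 20 of 21, although the value of Phyh was 0.84 without NC3. Within libraries with Xist RNA the differences were 0.72, 0.90, 0.96 and −0.74 in the same order, and within those without 1.12, 1.57, 1.98 and −1.31.

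**Figure D4:**
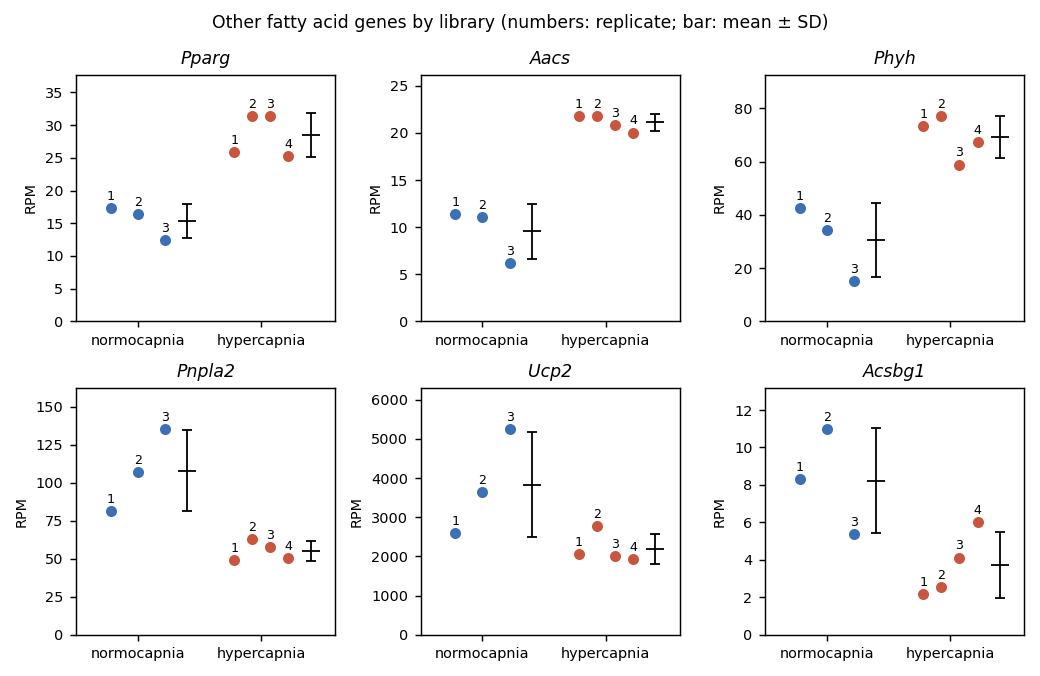
RPM (linear axis from 0) of 6 called genes of fatty acid metabolism outside the 44, in each library, blue for normocapnia and red for hypercapnia, with the replicate number above each point and a bar for the mean ± SD. Pparg, Aacs and Phyh were higher and Pnpla2 lower in all 4 hypercapnia libraries, whereas for Ucp2 HC2 (2764 RPM) was above NC1 (2585 RPM) and for Acsbg1 HC4 (6.03 RPM) was above NC3 (5.37 RPM).

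The other 3 called genes had overlapping groups. Ucp2, a carrier of the inner mitochondrial membrane, was at 2585, 3645 and 5251 RPM in normocapnia and at 2058, 2764, 2004 and 1928 RPM in hypercapnia (−0.76, SE 0.27). Its order in normocapnia, like that of Pnpla2, was that of the summed macrophage markers, lowest in NC1 and highest in NC3. That sum was mostly Lyz2. Lyz2, Cd68 and Fcgr1 had this order, whereas Adgre1, Cd14, C1qb and C1qc were lowest in NC3. In hypercapnia Ucp2 was highest in HC2 and the summed markers in HC1. The covariate made from these macrophage markers was the mean of their log2(RPM + 1), which did not follow the order of their sum in normocapnia. With that covariate Pnpla2 kept its call (−0.95), whereas Ucp2 lost it at a difference no smaller (−0.83). Acsbg1, an acyl-CoA synthetase of the bubblegum family, was at 8.30, 11.0 and 5.37 RPM and at 2.18, 2.56, 4.12 and 6.03 RPM (−0.99, SE 0.36), and the peroxisomal Ehhadh at 2.54, 1.03 and 1.45 RPM and at 4.07, 3.32, 2.19 and 3.72 RPM (0.71, SE 0.25). Each of these 3 lost its call in some of the 21 other settings, Ucp2 in 13, Acsbg1 in 9 and Ehhadh in 16. The call of Ucp2 ended without NC2, NC3, HC1, HC3 or HC4 (−0.77 to −0.50), that of Acsbg1 without NC1, NC2, HC1, HC2 or HC3 (−1.05 to −0.78) and that of Ehhadh without NC2, NC3, HC1, HC2 or HC4 (0.53 to 0.71). Within libraries with Xist RNA the differences were −0.36, −1.65 and 0.80 in the same order, and within those without −1.42, −0.09 and 0.67.

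By function, beside 2.57% of all genes and 4.75% of those averaging 1 RPM or more, called genes were 2 of 16 of peroxisomal oxidation (Phyh, Ehhadh), 1 of 14 of lipolysis and lipid droplets (Pnpla2), 2 of 15 PPAR factors and genes they induce (Pparg, Ucp2) and 2 of 8 further acyl-CoA synthetases (Aacs, Acsbg1). None was called among 11 further β-oxidation enzymes, 18 genes of uptake, binding and carnitine, and 17 of synthesis, elongation partners and desaturation. The most abundant genes of these lists varied widely. Cd36, the fatty acid translocase, was at 234, 902 and 1518 RPM in normocapnia and at 462, 606, 339 and 392 RPM in hypercapnia (−0.64, SE 0.67). Plin2, which coats lipid droplets, was at 712, 2494 and 2541 RPM and at 1553, 3296, 1183 and 1179 RPM (−0.02, SE 0.62). For both, NC1 stood far below NC2 and NC3, and the log2 fold changes without it were −1.41 and −0.62. Without NC3 they were −0.0649 and 0.29. Etfa, which takes electrons from the acyl-CoA dehydrogenases, was at 200.4, 124 and 353 RPM and at 142 to 183 RPM (−0.40, SE 0.36, with −0.0155 without NC3 and −0.77 without NC2, where it was called). Hsd17b12, which works with the elongases, was at 186 to 253 RPM and at 227 to 309.6 RPM (0.19, SE 0.16).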

How the data were processed

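The authors prepared AmpliSeq libraries from sorted cells, read them on an Ion GeneStudio S5 Plus and deposited RPM per gene, analysed in the Transcriptome Analysis Console. Which aligner and genome build were used is not given in the sources used here. Whole reads were recovered from the RPM steps, with 100% of values whole within 0.05 reads. Groups follow the sample labels, and even the closest of 21 library pairs differed beyond counting noise (chi-square over degrees of freedom 24.6). All 23930 genes were fitted without a filter with limma 3.58.1 (R 4.3.3) on log2(RPM + 1), two-sided, and called at an unadjusted p under 0.05 and a fold above 1.5. Adjusted p-values are Benjamini-Hochberg over all genes. edgeR 4.0.16 (quasi-likelihood, TMM) and DESeq2 1.42.0 were run on whole reads as alternatives, beside other pseudocounts, filters, scalings and priors, each library left out, a replicate block and marker covariates. Each marker covariate was the mean of log2(RPM + 1) over its list. The fits were tested on simulated data. The Xist covariate and the fit of libraries with Xist RNA alone were added after values were seen. The members and lists were chosen with earlier results of these data known. The rule for giving values in each library names called members, members of at least 10 RPM whose groups do not overlap, the most abundant member of each role, both Cpt1a and Cpt1b, and the called and the most abundant genes of each list. Other genes are given by range or counts, and single-library values of Acsl1, Acss3, Acadm, Acads, Acad8, Acadsb, Acot13, Elovl5, Fads2 and Fads3, and the naming of Ppard and Adgre1, were chosen after they were seen. Cpt1b, which the rule names, was not analysed here. Sequences are from RefSeq.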

Additional observations from a re-analysis of the deposited data

Results flagged for a closer look

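Only hypercapnia, with 4 libraries, was checked for single libraries apart from the rest, since normocapnia has 3. Of 22 named genes checked there, Ucp2 had 1 such library: HC2, at 2764 RPM, stood above the other 3 hypercapnia libraries (1928 to 2058 RPM) by most of the range of the group. About 1 in 20 such checks gives a mark of this kind by chance.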

How the results depend on the processing

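The 2 called fatty acid genes became 1 with a pseudocount of 5 RPM, 4 with Xist as a covariate and 1 to 9 when 1 library was left out (9 without NC1, 4 without NC2, 4 without HC3, 1 without HC1), and the cause was not tested. Of all genes, 615 were called (343 higher and 272 lower), beside 1049 with edgeR without a filter, 1304 with DESeq2 (519 and 785), 1034 with the satellite cell markers and 1316 with Xist as a covariate, and 376 to 1990 when 1 library was left out (1990 without NC1, 1205 without NC2, 385 without HC1, 376 without HC2). The split was 336 and 357 after quantile normalization, 294 and 508 with filtered edgeR and 235 and 381 without NC3. The 7 called pathway genes became 4 with a prior that follows the mean, 11 with the satellite cell markers and 16 with Xist as a covariate, and 4 to 14 when 1 library was left out (14 without NC1, 12 without NC2, 4 without HC1). Of the 22 named genes, directions turned for Acadl (−0.40 to 0.53 when 1 library was left out, the latter without NC1, and 0.25 with the macrophage covariate), Hadha (−0.0076 with median-of-ratios scaling, −0.0209 with DESeq2), Cd36 (0.20 in libraries with Xist RNA) and Hsd17b12 (−0.0232 with DESeq2). For Plin2, near 0, they turned with quantile normalization (0.0608), the replicate block (0.14), the satellite (0.19) or Xist (0.0158) covariate, in libraries with Xist RNA (0.76) and without NC2, NC3, HC1, HC3 or HC4 (0.0087 to 0.29), with −0.62 to 0.29 over all 7 left out in turn. Replicate numbers did not pair the libraries (correlations of deviations −0.35, 0.50 and −0.04), and with the replicate block 2 fatty acid genes, 598 of all genes and 6 pathway genes were called. Values at or below 3 reads of their own library, a floor of up to 0.207 RPM, occurred in Acot3, Acot5, Acot12 and Elovl2 and, in NC3, in Acad12 and Elovl3.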
